A study of Mus musculus with 7 samples.

Results

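The table of regions bound by HNF4a in mouse liver assigned 239 of its 39704 regions to 74 genes of the cytochrome P450 superfamily outside the main sterol pathways. The members were all regions whose gene name was Cyp followed by a digit, leaving out Cyp7a1, Cyp7b1, Cyp8b1, Cyp27a1 and Cyp51, which held another 32 regions. The choice used gene names only and no measured value, but it was made with earlier results of these data known. The 74 genes belonged to 28 subfamilies on 12 chromosomes, and 13644 genes in all were named in the table. RefSeq (GRCm38.p6) listed 71 of them as protein-coding and 2, Cyp2d13 and Cyp2d37-ps, as transcribed pseudogenes, and 1 (Cyp2c44) had no entry under its symbol.

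Cytochromes P450 are haem enzymes that put oxygen into small molecules. Hepatocytes use the members of the early-numbered families to oxidise drugs, plant toxins and steroid hormones, and other members to hydroxylate or epoxidise fatty acids, retinoic acid and vitamin D. In rodents many Cyp2 and Cyp3 genes lie in tandem clusters of close copies, often with a sex-biased level in liver. HNF4a is a nuclear receptor that binds DNA as a homodimer and is required for the expression of many of these genes in hepatocytes.

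HNF4a occupancy was measured by chromatin immunoprecipitation with sequencing (antibody ab41898) in 3 livers of AMPK-CA mice, which carry constitutively active AMP-activated protein kinase, and in 3 wild-type (WT) livers. Both genotypes had eaten high-fat food with doxycycline, a drug often used to switch transgenes on, for 14 days. The labels give 3 batches, with 1 AMPK-CA and 1 WT library in each, and replicate numbers below are batch numbers. The labels do not give the promoter of the AMPK-CA allele, the age or the sex of the mice. The comparison asks how HNF4a binding near these genes differs when AMPK is active.

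The 3 AMPK-CA libraries held 692813 to 1207609 reads in regions and the 3 WT libraries 536027 to 1622087. WT replicate 1 stood apart, with 19.4% of its reads at promoters, against 11.7% to 14.2% in the other 5 libraries. Values are normalized reads per region, and differences are log2(value + 1.80) in AMPK-CA minus WT. Of the hepatocyte marker genes, 9 of 10 had a region within 50 kb, as did 3 of 5 cholangiocyte, 1 of 5 Kupffer cell, 4 of 5 endothelial and 0 of 5 stellate cell markers. In whole liver, fewer cells with a bound site and less binding per cell cannot be told apart.

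P450 genes held somewhat more regions than other genes. They averaged 3.23 regions per gene, against 2.91 over all genes, and 25.7% of P450 genes held 5 or more regions, against 18.0% of all genes. Another 24 P450 genes held 1 region. The median distance from a start site was 5.82 kb for P450 regions and 10.9 kb for all regions, and 50 P450 regions lay within 1 kb of one. Of the 239 regions, 49.8% lay between genes, against 31.3% of all regions, and 23.4% lay in introns, against 44.9%. Promoters held 18.4% of P450 regions and 13.2% of all regions. A region assigned to a P450 gene did not always lie in it: of the 120 regions inside a gene, 21 lay in another one, such as the strongest Cyp4f14 region, which lay in the last intron of Cyp4f13.

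The strength of binding was ordinary for this table when all regions were pooled, and higher at promoters. The median P450 region had 18.3 normalized reads, against 17.4 for all regions, and 27 P450 regions were among the strongest 10% of the table, which is 11.3% of them. At promoters the median was 28.4 for P450 regions and 18.9 for all regions. Between genes it was 17.8 and 17.7, in introns 17.5 and 17.1, in exons 17.9 and 16.6, and at gene ends 14.6 and 17.3. The strongest region of each gene had a median of 35.1 for P450 genes and 25.9 for all genes. The highest P450 region in normalized reads lay 17.3 kb upstream of Cyp2d37-ps, at 206 ± 25.7 in AMPK-CA livers and 192 ± 46.4 in WT livers (SD). Per kilobase, so that regions of different length can be set side by side, the median mean was 38.0 normalized reads for P450 regions and 33.3 for all regions. The 5 highest P450 regions on that scale were a region 2.0 kb upstream of Cyp2d13 (162 per kb), a Cyp4v3 intron 2 region (151), a region 16.5 kb from the start of Cyp2d40 (146), a region 11.7 kb upstream of Cyp3a25 (137) and a region 2.0 kb upstream of Cyp2d26 (132). Among the 14 subfamilies with 5 or more regions, the median per kilobase ran between 26.6 for Cyp2j and 56.1 for Cyp2u. The regions of the Cyp2d cluster on chromosome 15 spanned 16.2 to 162.

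Short sequences that HNF4 proteins favour were looked for in the promoters of these genes, taken from RefSeq (GRCm38.p6, the assembly behind mm10) as 250 bases before to 50 after the start site. The letters searched were CAAAGTCCA, CAAAGTTCA and CAAAGGTCA, on both strands. The 3 differ in their letters, so none can match at the same bases on the same strand. Of the 74 genes, 55 matched a promoter by symbol. A gene can have several start sites, so counts are given by gene. At least 1 of the 3 motifs stood in a promoter of 12 of the 55 genes (21.8%), against 413 of all 27025 genes (1.53%). Counted by promoter, it stood in 13 of 63 (20.6%), against 437 of all 32851 promoters (1.33%). The 12 are not independent, since most are close copies of one another in the Cyp2c and Cyp3a clusters. Of the 55 genes, 33 (60.0%) had a promoter that overlapped an HNF4a region, against 27.6% of all genes. Each of the 55 genes had an HNF4a region by the choice of members, while all 27025 genes include genes without one. The shares of P450 genes and of all genes are thus not like for like. Among genes whose promoter overlapped a region, a motif stood in 8 of the 33 P450 genes (24.2%), against 2.17% of all such genes. It stood in a promoter of 4 of the other 22 P450 genes (18.2%).

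The motif and its surroundings are shown for 10 of the 12 genes, because these 12 alone among the 55 hold those letters. Capitals mark the motif, coordinates are mm10, and each is read 5′ to 3′ along the gene's strand.
Cyp2c67, minus strand, chr19:39649138-39649187: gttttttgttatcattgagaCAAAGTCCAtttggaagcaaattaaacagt
Cyp2c68, minus strand, chr19:39741149-39741198: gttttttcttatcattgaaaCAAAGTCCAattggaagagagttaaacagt
Cyp2c70, minus strand, chr19:40187321-40187370: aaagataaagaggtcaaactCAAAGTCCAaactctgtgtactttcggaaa
Cyp2c65, plus strand, chr19:39060870-39060919: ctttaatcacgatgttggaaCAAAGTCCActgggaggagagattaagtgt
Cyp3a11, minus strand, chr5:145879934-145879983: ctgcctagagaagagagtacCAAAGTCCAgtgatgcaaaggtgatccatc
Cyp3a16, minus strand, chr5:145469793-145469842: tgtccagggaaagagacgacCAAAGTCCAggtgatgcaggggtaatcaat
Cyp3a25, minus strand, chr5:146009768-146009817: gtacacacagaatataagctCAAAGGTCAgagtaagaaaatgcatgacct
Cyp3a57, plus strand, chr5:145345072-145345121: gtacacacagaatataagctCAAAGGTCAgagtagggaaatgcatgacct
Cyp3a59, plus strand, chr5:146079058-146079107: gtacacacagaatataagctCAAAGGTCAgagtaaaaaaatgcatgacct
Cyp26a1, plus strand, chr19:37697756-37697805: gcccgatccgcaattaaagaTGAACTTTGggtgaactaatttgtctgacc
Cyp3a41a and Cyp3a41b hold the same 50 bases as Cyp3a16, and in Cyp26a1 the motif is CAAAGTTCA on the other strand. The motif started 64 bases before the start site in Cyp2c70 and 180 before it in Cyp3a25 and Cyp3a59. HNF4a regions overlapped the promoters of Cyp2c67, Cyp2c68, Cyp2c70, Cyp3a11, Cyp3a25, Cyp3a57, Cyp3a59 and Cyp26a1, and not those of Cyp2c65, Cyp3a16, Cyp3a41a and Cyp3a41b.

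Between genotypes no P450 region passed the threshold in limma with all 6 libraries. Over all 39704 regions limma called 0 (0%) at a Benjamini-Hochberg adjusted p under 0.05, and 0 of the 239 P450 regions, whose smallest adjusted p was 1.00. At an unadjusted p under 0.05 limma had 975 regions in all (2.46%) and 10 P450 regions. Of these 10, 7 were higher in AMPK-CA (1.46% of all regions were) and 3 lower (0.995% of all regions were). With the batch as a block, limma called 23 regions in all (0.0579%) and again 0 P450 regions, and at an unadjusted p under 0.05 it had 7.27% of all regions and 23 P450 regions, 17 of them higher (4.11% of all regions) and 6 lower (3.16%) in AMPK-CA. Without batch 1 the blocked limma fit called 0.0302% of all regions and 0 P450 regions. At an unadjusted p under 0.05 it then had 6.84% of all regions and 18 P450 regions, 6 of them higher (3.6% of all regions) and 12 lower (3.24%).

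P450 regions nevertheless leaned to higher values in AMPK-CA livers when all 6 libraries were used. The difference was positive at 158 of the 239 (66.1%), against 50.6% of all regions, and its median was 0.13, against 0.01 over all regions. This lean came with batch 1. The median P450 difference between the 2 libraries of batch 1 was 0.46, while that of batch 2 was -0.08 and that of batch 3 was -0.02. Over all regions these medians were -0.03, -0.02 and 0.00. In batch 1, 170 P450 regions were higher in the AMPK-CA liver (48.4% of all regions were), against 103 in batch 2 (48.8% of all) and 116 in batch 3 (50.1% of all). Without batch 1 the median was -0.0069 for P450 regions and -0.0075 for all regions, and 117 P450 regions were positive (49.3% of all regions were).

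The library that moved with this was WT replicate 1. It had the lowest value of the 6 libraries at 127 of 239 P450 regions (53.1%), against 30.8% of all regions. The same held at 19 of the 32 regions (59.4%) of the 5 sterol pathway P450 genes left out. P450 regions took 0.656%, 0.759% and 0.681% of the reads of AMPK-CA replicates 1, 2 and 3, against 0.473%, 0.786% and 0.665% in WT replicates 1, 2 and 3. The Wilson 95% interval of WT replicate 1, 0.463% to 0.484%, lay below those of the other 5 libraries, and such intervals cover counting error only. Among P450 promoters WT replicate 1 was lowest at 22 of 44, against 7.58% of all promoters, although promoters in general took a high share of this library's reads. Between genes it was lowest at 75 of 119 P450 regions, against 40.9% of all intergenic regions, and in introns at 24 of 56, against 35.2%. The part of this library in the batch 1 difference cannot be told apart from genotype in that batch, which held 1 library of each.

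The lean in batch 1 was uneven among subfamilies. Its median was 1.41 in Cyp4a, 1.49 in Cyp2j, 1.11 in Cyp2c, 1.06 in Cyp3a, 1.01 in Cyp2b and 0.80 in Cyp2a, and between -0.43 and 0.05 in Cyp4f, Cyp1a, Cyp17a, Cyp2f and Cyp2u. WT replicate 1 was the lowest library at 8 of the 15 Cyp2a and 4 of the 10 Cyp2b regions, a smaller share than in the 4 subfamilies named first, which were grouped after their values were seen. Their 78 regions had a median difference of 1.17 in batch 1, -0.09 in batch 2 and -0.03 in batch 3, and WT replicate 1 was the lowest library at 61 of them. In the 136 regions outside those 4 subfamilies and outside Cyp2a and Cyp2b, the batch 1 median was 0.14 and WT replicate 1 was lowest at 54.

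**Figure D1:**
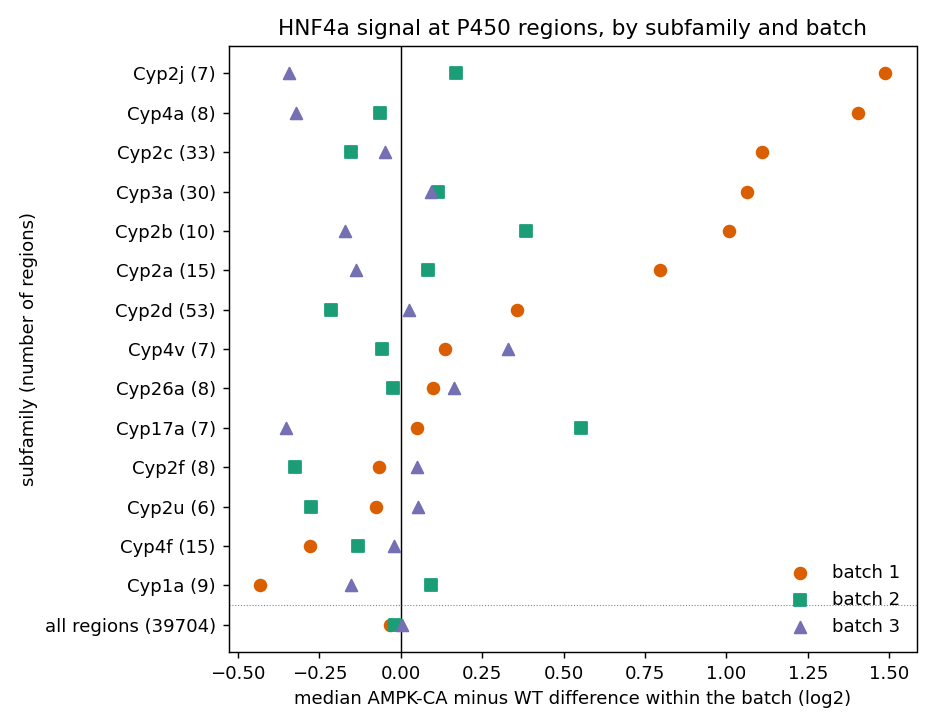
Median difference between the AMPK-CA and the WT library of each batch (log2 scale, x axis) for the 14 subfamilies with 5 or more regions, and for all regions in the bottom row. Batch 1 (circles) lies at 1.41 for Cyp4a and 1.49 for Cyp2j and at -0.43 for Cyp1a, while batches 2 and 3 lie nearer to 0 in most rows.

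The 33 regions of the Cyp2c subfamily spanned 5044 kb of chromosome 19, with Cyp2c44 apart from the rest. They belong to 12 genes, whose enzymes include some that epoxidise arachidonic acid or oxidise drugs. Their median value was 16.9, 21.3 and 20.8 normalized reads in AMPK-CA replicates 1 to 3, against 8.67, 27.0 and 18.0 in WT replicates 1 to 3. Batch 1 gave a median difference of 1.11, batch 2 of -0.15 and batch 3 of -0.05, and 24 of the 33 had their lowest value in WT replicate 1. The AMPK-CA medians thus lay inside the range of the WT medians.

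The Cyp3a subfamily on chromosome 5, whose enzymes oxidise a wide range of drugs and steroids, had 30 regions at 9 genes. These regions spanned 8167 kb. Their median was 17.3, 25.7 and 16.7 in AMPK-CA replicates, against 8.0, 21.3 and 14.4 in WT replicates. Its median difference was 1.06, 0.12 and 0.09 in batches 1 to 3, positive in each. Computed without batch 1 as the difference of the genotype means at each region, it was -0.03.

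Cyp4a genes encode the fatty acid omega-hydroxylases that PPARa switches on. All 8 of their regions on chromosome 4 were lowest in WT replicate 1. Their median was 16.5, 25.2 and 18.8 in AMPK-CA replicates, against 6.0, 22.1 and 23.4 in WT replicates, and all 8 differences over the 3 batches were positive. Without batch 1 their median difference was -0.08. The 7 Cyp2j regions, also on chromosome 4 and near arachidonic acid epoxygenase genes, had medians of 11.3, 12.6 and 18.1 in AMPK-CA replicates, against 2.67, 12.7 and 12.6 in WT replicates, the lowest of which rests on a handful of reads per region.

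The largest subfamily, Cyp2d, had 53 regions at 10 genes on chromosome 15 and showed less of this. Median values were 22.5, 23.3 and 25.0 in AMPK-CA replicates, against 16.7, 24.7 and 21.6 in WT replicates, with median differences of 0.36, -0.21 and 0.03 in batches 1 to 3. The 15 Cyp2a and 10 Cyp2b regions share a cluster on chromosome 7. Cyp2a had median differences of 0.80, 0.08 and -0.14 in batches 1 to 3, and Cyp2b of 1.01, 0.38 and -0.17. Computed without batch 1, the medians were 0.12 for Cyp2a and 0.13 for Cyp2b.

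Fatty acid and leukotriene hydroxylase genes of the Cyp4f subfamily on chromosome 17 had 15 regions and a median difference of -0.28 in batch 1, opposite in sign to Cyp4a. Cyp1a1 and Cyp1a2, targets of the aryl hydrocarbon receptor, held 9 regions with a median of -0.43 in batch 1, 0.09 in batch 2 and -0.15 in batch 3. Cyp4v3, a fatty acid hydroxylase whose human counterpart is mutated in a crystalline retinal disease, had 7 regions with median differences of 0.14, -0.06 and 0.33.

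**Figure D2:**
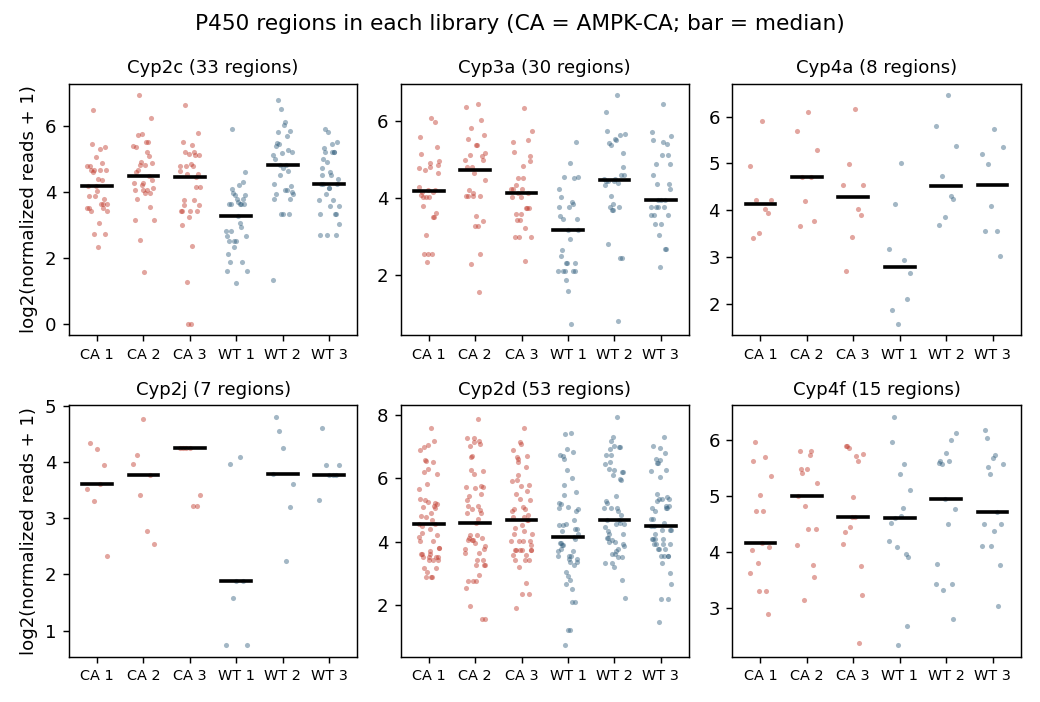
Values of every region, as log2 of normalized reads plus 1, in each of the 6 libraries for 6 subfamilies, with AMPK-CA libraries (CA) left of WT libraries and a bar at the median. WT replicate 1 is the lowest library in the Cyp2c, Cyp3a, Cyp4a, Cyp2j and Cyp2d panels, at a median of 8.67 normalized reads for Cyp2c, and not in the Cyp4f panel.

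The P450 region with the smallest p lay at the promoter of Cyp2a4, a steroid hydroxylase gene of mouse liver (chr7:26306956-26307348, mm10, centred 40 bases before the start site). It had 38.6, 23.3 and 13.9 normalized reads in AMPK-CA replicates 1 to 3, against 9.34, 0.749 and 8.99 in WT replicates 1 to 3. The groups did not overlap, which 4.64% of all regions and 5 P450 regions did in this direction, and the value of WT replicate 2 was 1 read. The mean was 25.3 ± 12.5 in AMPK-CA livers and 6.36 ± 4.86 in WT livers (SD, n = 3 each), a ratio of 3.97. The log2 difference was 1.90 ± 0.59 (SE), with an unadjusted limma p of 0.0038 and within-batch differences of 1.86, 3.30 and 0.54. Its adjusted p was 1.00 in limma without a block and 0.059 with the batch block, and 0.031 in edgeR with the block, where it was the 1 P450 region called (0.063% of all regions were). Without WT replicate 1, limma called it at an adjusted p of 0.018 (0.0403% of all regions were called), and without WT replicate 2 its log2 difference was 1.20. The region was singled out after its values were seen.

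The same cluster holds Cyp2a5, which encodes a coumarin hydroxylase and has a promoter that matches that of Cyp2a4 at 294 of 299 aligned bases (98.3%). Its promoter region had 23.3, 18.4 and 11.1 normalized reads in AMPK-CA replicates, against 12.7, 5.99 and 12.6 in WT replicates, so these groups overlapped. The log2 difference was 0.67, with an unadjusted limma p of 0.18. Because so few bases separate the copies, reads could have been placed at either (the labels do not say how the authors treated reads with several matches). The 250 bases upstream of each are shown for that reason, with capitals at the 4 bases that differ where they are aligned, the Cyp2a4 stretch starting 1 base earlier.
Cyp2a4, plus strand, chr7:26306942-26307191: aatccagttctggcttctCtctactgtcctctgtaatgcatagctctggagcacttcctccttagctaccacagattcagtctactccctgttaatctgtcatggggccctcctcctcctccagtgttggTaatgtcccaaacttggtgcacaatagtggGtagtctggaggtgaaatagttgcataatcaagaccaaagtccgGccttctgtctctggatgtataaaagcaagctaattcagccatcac
Cyp2a5, plus strand, chr7:26835089-26835338: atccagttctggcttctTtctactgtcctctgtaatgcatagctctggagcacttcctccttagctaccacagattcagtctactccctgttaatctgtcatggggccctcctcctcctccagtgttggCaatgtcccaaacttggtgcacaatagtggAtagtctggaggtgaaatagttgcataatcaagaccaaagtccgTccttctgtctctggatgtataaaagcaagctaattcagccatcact
With 1 promoter taken for each of the 55 genes, 19 genes belonged to a pair at least 90% identical, including Cyp3a41a with Cyp3a41b (99.7%) and Cyp2b13 with Cyp2b9 (99.3%). Promoter values at the closest of these copies may therefore be uncertain. The placement of reads was not tested.

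Other regions with higher values in AMPK-CA livers lay at Cyp2c29, whose enzyme epoxidises arachidonic acid. The promoter (chr19:39286727-39287195) had 26.6, 40.7 and 26.4 normalized reads in AMPK-CA replicates, against 6.0, 33.7 and 12.6 in WT replicates. The highest WT library lay above 2 of the AMPK-CA libraries. The log2 difference was 1.03 ± 0.49 (SE), with an unadjusted limma p of 0.045. A weaker region in intron 1 of the same gene (chr19:39289214-39289654), picked after its values were seen, had 10.5, 18.4 and 23.6 in AMPK-CA replicates, against 5.34, 1.5 and 5.39 in WT replicates. These groups did not overlap. The log2 difference was 1.74 ± 0.65 (SE) and the unadjusted limma p 0.013, and without batch 1 the difference was 2.22. The WT values rest on few reads, since 1 read is worth 0.667, 0.749 and 1.80 in WT replicates 1 to 3.

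In the Cyp3a cluster, intron 7 of Cyp3a11, the main mouse relative of human CYP3A4, held a region (chr5:145867494-145867838) with 26.6, 31.0 and 18.1 normalized reads in AMPK-CA replicates, against 3.34, 21.7 and 12.6 in WT replicates. WT replicate 1 was far below the rest, and WT replicate 2 lay above 1 AMPK-CA library. The log2 difference of 1.14 ± 0.52 (SE; unadjusted limma p of 0.038) was 0.47 without batch 1. A region 38.6 kb from the start of Cyp3a16 (chr5:145430942-145431356), also picked after its values were seen, had 17.7, 24.3 and 15.3 in AMPK-CA replicates, against 4.0, 12 and 3.59 in WT replicates, without overlap. Its log2 difference was 1.44 ± 0.54 (SE), with an unadjusted limma p of 0.013. The values of WT replicates 1 and 3 rest on few reads.

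A region 7.8 kb upstream of Cyp2g1, a gene best known from olfactory tissue, had 57.1, 87.3 and 69.5 normalized reads in AMPK-CA replicates, against 22.7, 57.7 and 53.9 in WT replicates. Its unadjusted limma p was 0.046 and its log2 difference 0.74 ± 0.35 (SE). The Cyp2c70 promoter, at the gene for the mouse enzyme that makes muricholic bile acids and the site of a motif shown above, had 40.2, 74.7 and 54.2 in AMPK-CA replicates, against 11.3, 56.2 and 44.9 in WT replicates (unadjusted limma p of 0.088). Its groups overlapped outside batch 1. Intron 2 of Cyp4v3 (chr8:45327041-45327743), among the strongest P450 regions, had 101, 114 and 163 in AMPK-CA replicates, against 92.7, 99.6 and 66.5 in WT replicates. These did not overlap, yet the lowest AMPK-CA and the highest WT value nearly met, and the log2 difference was 0.53 ± 0.27 (SE; unadjusted limma p of 0.061).

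**Figure D3:**
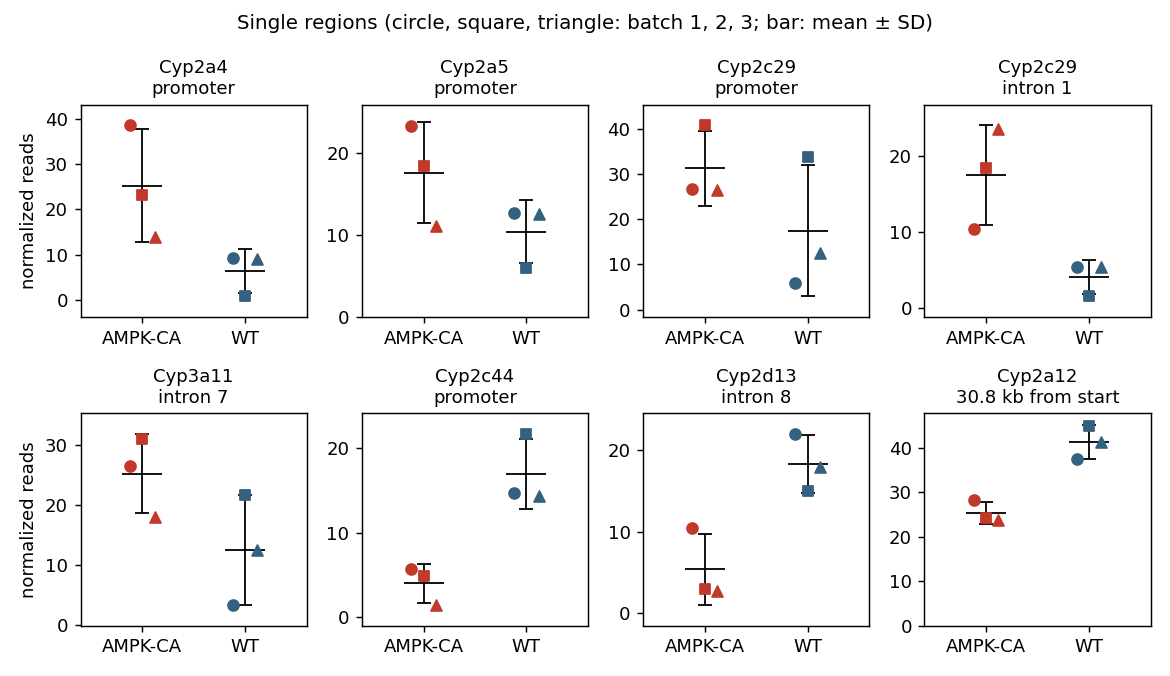
Normalized reads at 8 single regions, AMPK-CA left and WT right in each panel, with a symbol per library (circle, square and triangle for batches 1, 2 and 3) and a bar at the mean ± SD. The Cyp2a4 promoter (38.6, 23.3 and 13.9 in AMPK-CA) and Cyp2c29 intron 1 lie above WT without overlap, the Cyp2c44 promoter, Cyp2d13 intron 8 and the region 30.8 kb from Cyp2a12 lie below WT without overlap, and the other 3 overlap.

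Regions with lower values in AMPK-CA livers lay in some of the same subfamilies. At the promoter of Cyp2c44, an arachidonic acid epoxygenase (chr19:44029029-44029444), values were 5.63, 4.85 and 1.39 normalized reads in AMPK-CA replicates, against 14.7, 21.7 and 14.4 in WT replicates. The groups did not overlap, as at 3.27% of all regions and 6 P450 regions in this direction. The log2 difference was -1.77 ± 0.65 (SE), with an unadjusted limma p of 0.012, and -2.08 without batch 1. The AMPK-CA values rest on 7, 5 and 1 reads, and the region was picked after its values were seen. Some 7.6 kb away, exon 2 of the same gene held the strongest region of the subfamily (chr19:44021076-44022226), with 87.7, 121 and 97.2 in AMPK-CA replicates, against 58.7, 109 and 59.3 in WT replicates, and a log2 difference of 0.47. Of the 5 regions of this gene, 3 had a positive and 2 a negative difference. The contrast between the promoter and exon 2 was not tested.

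In Cyp2d13, listed as a pseudogene, an intron 8 region (chr15:82637576-82638197), picked after its values were seen, had 10.5, 2.91 and 2.78 normalized reads in AMPK-CA replicates, against 22, 15.0 and 18.0 in WT replicates, without overlap. Limma gave a log2 difference of -1.63 ± 0.58 (SE), with an unadjusted limma p of 0.0094. The values of AMPK-CA replicates 2 and 3 rest on few reads. A region 30.8 kb from the start of Cyp2a12, a steroid hydroxylase gene (chr7:27059356-27060364), had 28.2, 24.3 and 23.6 in AMPK-CA replicates, against 37.4, 44.9 and 41.3 in WT replicates. Each genotype was tight here and the groups did not overlap, with a log2 difference of -0.66 ± 0.35 (SE) and an unadjusted limma p of 0.072. The Cyp2a12 promoter did not show this, at 55.4 ± 13.2 in AMPK-CA livers and 56.8 ± 14.8 in WT livers (SD, n = 3 each).

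The remaining regions that the naming rule took as lower lay at Cyp4f15, Cyp2u1 and Cyp2f2. Intron 2 of Cyp2u1, the gene of a long-chain fatty acid hydroxylase, had 16.9, 16.5 and 15.3 in AMPK-CA replicates, against 36.7, 21.0 and 19.8 in WT replicates, without overlap. The log2 differences of these 4 regions ran between -0.56 and -0.45, with unadjusted limma p of 0.19 or more. Differences of 1 sign in all 3 batches were seen at 37 P450 regions in the higher direction (13.5% of all regions) and at 21 in the lower direction (14.6% of all regions).

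Cyp2d9, a male-biased testosterone hydroxylase gene of mouse liver, held more regions than any other P450 gene, 11 between 17.6 kb before and 18.4 kb after its start site. The strongest lay 2.1 kb upstream, with 66.3 ± 10.8 normalized reads in AMPK-CA livers and 50.9 ± 19.2 in WT livers, and at the promoter, with 42.2 ± 8.97 in AMPK-CA livers and 47.4 ± 21.7 in WT livers (SD, n = 3 each). Of the 11, only the region 7.1 kb past the start (chr15:82459249-82459683) had groups that did not overlap. It had 12.9, 8.73 and 13.9 in AMPK-CA replicates, against 32, 22.5 and 19.8 in WT replicates, with a log2 difference of -0.96 ± 0.44 (SE) and an unadjusted limma p of 0.040.

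**Figure D4:**
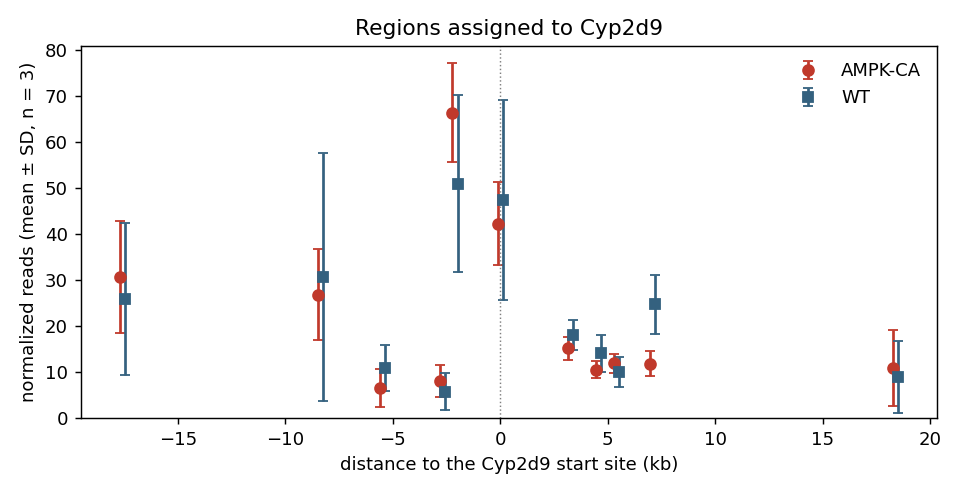
Normalized reads (mean ± SD, n = 3) at the 11 Cyp2d9 regions by distance from the start site in kb, AMPK-CA as circles drawn slightly left of WT squares. The bars overlap at every region apart from that at 7.1 kb, where AMPK-CA is at 11.8 and WT at 24.8.

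Well-known drug and toxin metabolism genes had strong regions with overlapping groups. The Cyp1a2 promoter, at a gene whose enzyme oxidises caffeine and aromatic amines, had 33.4 ± 3.75 normalized reads in AMPK-CA livers and 43.1 ± 15.7 in WT livers. The promoter of Cyp2e1, whose enzyme oxidises ethanol and acetaminophen, had 32.3 ± 7.50 in AMPK-CA livers and 39.1 ± 15.0 in WT livers. Cyp2b13 intron 4 had 44.0 ± 3.83 in AMPK-CA livers and 35.2 ± 8.25 in WT livers. In Cyp2f2, the naphthalene-oxidising enzyme, an intron 3 region had 43.7 ± 12 in AMPK-CA livers and 38.6 ± 20.9 in WT livers. In these 4 the difference was smaller than the WT standard deviation or close to it (SD, n = 3 each).

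Genes of steroid, retinoid and vitamin D metabolism were bound too. The strongest Cyp17a1 region, near a gene of androgen synthesis, had 31.5 ± 3.45 normalized reads in AMPK-CA livers and 41.2 ± 9.98 in WT livers. At Cyp26a1, which clears retinoic acid, the strongest region had 29.7 ± 21.2 in AMPK-CA livers and 20.7 ± 10.6 in WT livers. The promoter of Cyp2r1, which starts vitamin D activation, had 59.7 ± 14.8 in AMPK-CA livers and 53.4 ± 18.3 in WT livers, whereas the single region of Cyp27b1, which completes it in kidney, had 7.05 ± 5.28 in AMPK-CA livers and 11.7 ± 8.51 in WT livers. The single Cyp39a1 region, at an oxysterol hydroxylase gene that the rule keeps, had 28.8 ± 7.84 in AMPK-CA livers and 18.9 ± 6.25 in WT livers, with a log2 difference of 0.58 (SD, n = 3 each).

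The promoters with motifs followed the batch 1 pattern in part. Cyp2c67 had 19.3, 33.0 and 33.3 normalized reads at its promoter in AMPK-CA replicates, against 6.67, 37.4 and 36 in WT replicates. The Cyp2c68 promoter had 10.5, 21.3 and 20.8 in AMPK-CA replicates, against 2.67, 24.0 and 8.99 in WT replicates. In both, WT replicate 1 was the lowest library and the AMPK-CA values otherwise lay within the WT range. At Cyp3a11 the promoter had 18.5, 15.5 and 15.3 in AMPK-CA replicates, against 12.7, 19.5 and 10.8 in WT replicates, and WT replicate 3 was lowest there. Cyp3a25 had 27.4, 40.7 and 22.2 at its promoter in AMPK-CA replicates, against 12.7, 45.7 and 34.2 in WT replicates. At Cyp3a59 the promoter had 30.6, 34.9 and 52.8 in AMPK-CA replicates, against 22.7, 50.2 and 48.5 in WT replicates. WT replicate 1 was the lowest library at these as well, and the groups overlapped. The Cyp3a57 promoter was lowest in AMPK-CA replicate 3, with 24.1, 21.3 and 6.95 in AMPK-CA replicates, against 8.0, 23.2 and 18.0 in WT replicates. At Cyp26a1 the overlapping region, in exon 1, was highest in WT replicate 1, with 9.66, 4.85 and 9.72 in AMPK-CA replicates, against 18.0, 8.24 and 5.39 in WT replicates.

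Genes that serve P450 enzymes or control them were described by the strongest region within 50 kb of each start site. Of 11 electron partner and haem genes 10 had a region, 7 with a positive difference, and the median difference was 0.15, or 0.10 without batch 1, and 0 were called. Por, the reductase that feeds electrons to microsomal P450s, had 89.4 ± 18.6 normalized reads in AMPK-CA livers and 83.1 ± 14.3 in WT livers. The strongest regions of this list lay at Cyb5r3 and Fdxr, with log2 differences of -0.19 and -0.16. Of 20 regulator genes 19 had a region, 14 with a negative difference, and the median was -0.17, or -0.04 without batch 1. None of the 19 was called by limma without the block, and with the block limma called 1, the promoter of Nr1i3, which encodes the receptor that induces Cyp2b genes. It had 49.9, 62.1 and 34.7 in AMPK-CA replicates, against 157, 103 and 102 in WT replicates, without overlap, and an adjusted limma p of 0.0012 with the block. At Cyp2b10, the classical target of that receptor, none of the 6 regions had an unadjusted limma p under 0.05. Their median difference was 0.34, or 0.18 without batch 1, and 0.78, 0.51 and 0.01 in batches 1 to 3. The region 3.0 kb upstream, picked after its values were seen, had 12.1, 14.6 and 11.1 in AMPK-CA replicates, against 2.00, 5.24 and 10.8 in WT replicates. The groups nearly met there, and the WT values rest on few reads. A link to the Nr1i3 promoter was not tested.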

How the data were processed

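The authors deposited 1 table of HNF4a regions in mm10 coordinates with a normalized signal per library, AMPK-CA over WT ratios, the log2 of the mean ratio, a p-value and a score, per the file headers. In each library 100% of signal values were whole multiples, within 1e-06, of what 1 read is worth, so whole reads were recovered. Per the submitters' processing notes, tools included BWA, MACS2, SICER and HOMER (no role or version is stated), and neither notes nor labels say how regions were chosen. The divisors were 1.01 times the median-of-ratios factor in WT replicate 1 and 0.961 to 0.966 times it in the other libraries. Such a scale removes a change shared by most regions. A pooled input was not analysed here. Per the labels' protocols, libraries used a PrepX or an NEB kit, without saying which.

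Columns were matched to samples by animal code. Regions were fitted with limma 3.58.1 (R 4.3.3; mean-variance trend, robust) on log2(value + 1.80), where 1.80 is 0.1 times the median of the values above 0, by genotype, with p adjusted (Benjamini-Hochberg) over all 39704 regions. Fold changes on this scale understate changes of weak regions. The unit found was a normalized signal, so edgeR 4.0.16 and DESeq2 1.42.0 on recovered reads were alternatives. Fits were tested on simulated data with large changes, placed only at regions whose mean reached the table's median. The simulation did not cover smaller changes or weaker regions. The labelled batch pairs the samples, and deviations of same-batch libraries correlated with r of 0.53, 0.49 and 0.05 in batches 1, 2 and 3. Unless the block is named, p at single regions ignore this pairing. With the block, unadjusted limma p was 0.0056 at Cyp3a11 intron 7, 0.0066 at the Cyp2c29 promoter and 0.0093 at the Cyp2c70 promoter. It was 0.019 at Cyp4v3 intron 2, 0.018 at Cyp2d9 (7.1 kb) and 0.042 at Cyp2a12 (30.8 kb). Adjusted p with the block was 0.47 or more at each of these. The labels do not say more of how the livers were collected, so p-values measure the spread between these libraries and the trend over all regions.

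Members and lists were chosen with earlier results of these data known. Regions were named as the strongest of each of 19 subfamilies, those called, the 6 with the smallest p in each direction among regions whose 3 batches shared a sign and whose mean reached the table's median, and those of the gene with most regions. Regions outside this rule were taken for a promoter motif or a close copy, or were picked after their values were seen, as stated beside them. The exceptions were the strongest regions of Cyb5r3, Fdxr, Por and Cyp8b1.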

Additional observations from a re-analysis of the deposited data

How the results depend on the processing

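No region in all was called without a block by limma, edgeR or DESeq2 (975, 836 and 599 at an unadjusted p under 0.05), by limma at equal totals, with a larger pseudocount, with a filter on low values or without the mean-variance trend. With the batch as a block, limma called 23 regions in all, edgeR 25 and DESeq2 1. The block with a filter on low values, chosen after seeing the data, called 24. Without batch 1, limma called 4 regions in all, and 12 with the block. Leaving out 1 replicate at a time gave 0 to 16 regions in all and 0 to 1 P450 region. The 1 P450 region was the Cyp2a4 promoter, called by edgeR with the block (1 region) and by limma without WT replicate 1. The block changed no other call at a P450 region. The median P450 difference of 0.13 ran between -0.095 and 0.31 with 1 replicate left out, the lowest without WT replicate 1 and the highest without WT replicate 2. It was -0.0069 without batch 1, with and without the block. It was 0.25 with 1 region per gene and 0.14 after subtracting the median of each annotation class, an alternative chosen after seeing the data. Of 767 values of named regions under other settings, 724 kept their direction and side of the threshold, 41 changed sign with no call on either side, and 2 gained a call. Depth limits the weak regions, several of which rest on fewer than 10 reads in a library. The causes of these changes were not tested.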

Other observations

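The 5 sterol pathway genes left out of the member list each had a region, 3 with a positive and 2 with a negative difference at the strongest one. Their 32 regions had a median difference of 0.41 in batch 1, -0.10 in batch 2 and 0.06 in batch 3. The strongest Cyp8b1 region, at a gene of cholic acid synthesis, had 73.4 ± 14.3 normalized reads in AMPK-CA livers and 69.9 ± 12.6 in WT livers (SD, n = 3 each).

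In the authors' deposited table, 3 of the 239 P450 regions were higher and 14 lower in AMPK-CA at that table's unadjusted p under 0.05. Of all 39702 regions with a value, 1484 were higher and 3458 lower. As shares, both P450 counts lay below those of all regions, and lower regions outnumbered higher ones in both sets. The median log2 mean ratio in the authors' deposited table was 0.31 over P450 regions and 0.14 over all regions. This measure takes the log2 of a mean of ratios. The differences given above are differences of mean log2 values, so the numbers are not like for like.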
